A study of Mus musculus with 6 samples.

Results

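Transcripts of 9 genes of B lymphocytes and antibody-secreting plasma cells were followed in bulk RNA of microglia, the macrophages that reside in brain tissue, purified from 3XTg-AD mice with a fluorescence-activated cell sorter. The genes were Cd79a, Cd79b, Ms4a1, Jchain, Cd22, Pax5, Ebf1, Vpreb3 and Blk, taken by symbol from a count table of 24956 genes, and all 9 were found and passed the filter on low counts. The 6 libraries comprised 3 from mice given an anti-NK1.1 antibody, which depletes natural killer (NK) cells, and 3 from mice given an isotype antibody. Every animal was of the 3XTg-AD strain, a model of Alzheimer's disease that carries mutant human APP and MAPT transgenes, was 7 months old, and received 25 µg of its antibody every 4 days for 4 weeks. The labels do not say whether a library came from 1 animal or a pool, nor which surface markers set the sort gate. Levels are given as CPM, read counts brought to a common depth for each library by the trimmed mean of M values (TMM).

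B cells recognise antigen through a receptor made of a membrane immunoglobulin and the signalling pair CD79A and CD79B. The transcription factors EBF1 and PAX5 commit lymphoid precursors in the bone marrow to this lineage, and plasma cells later lose much of the B cell programme and secrete antibody. In the mouse brain, B lineage cells are found mainly in the meninges and at other borders, and few lie in the tissue itself.

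Sequences upstream of the members are shown for Cd22 and Vpreb3, because of the member promoters searched these were the ones that held a match to a motif of the lineage. RefSeq promoter windows of GRCm38.p6, from 250 bases before to 50 after the annotated start, were given for 6 of the 9 genes (Cd79a, Jchain, Cd22, Pax5, Ebf1 and Vpreb3). Both strands were searched for the core of the EBF motif, CCCNNGGG, for an extended form with a T before and an A after that core, and for the octamer ATGCAAAT bound by POU factors such as the product of Pou2f2. The core occurred in 13.7% of 32817 promoter windows, the extended form in 0.905% and the octamer in 1.74%. Capitals mark the extended EBF match in Cd22 (chr7:30878979-30879278, minus strand) and the octamer, read on the opposite strand, in Vpreb3 (chr10:75948050-75948349, plus strand).
Cd22: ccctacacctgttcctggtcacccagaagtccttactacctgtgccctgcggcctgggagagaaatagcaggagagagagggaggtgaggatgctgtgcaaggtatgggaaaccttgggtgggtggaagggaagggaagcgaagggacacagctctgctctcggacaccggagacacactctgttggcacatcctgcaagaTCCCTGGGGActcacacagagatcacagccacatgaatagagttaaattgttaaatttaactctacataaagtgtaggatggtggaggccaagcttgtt
Vpreb3: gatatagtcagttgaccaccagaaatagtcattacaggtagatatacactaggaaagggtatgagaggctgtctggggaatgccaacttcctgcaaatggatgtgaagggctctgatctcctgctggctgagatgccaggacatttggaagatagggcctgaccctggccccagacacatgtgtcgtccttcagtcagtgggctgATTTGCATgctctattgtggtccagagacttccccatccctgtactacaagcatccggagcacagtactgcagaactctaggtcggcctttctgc
The match in Cd22 spans bases -49 to -40 from the start, and that in Vpreb3 spans bases -45 to -38. A match describes the letters in the window and was not tested as a binding site.

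Taken over the 9 genes, the anti-NK1.1 and isotype libraries did not differ in a way that edgeR's quasi-likelihood test called. Log2 changes were above 0 for 4 genes (Cd79a, Cd79b, Jchain and Vpreb3) and below 0 for 5 (Ms4a1, Cd22, Pax5, Ebf1 and Blk), beside 50.9% above 0 among all 14520 tested genes, and their median was -0.06 beside 0.01 for all. None of the 9 passed an adjusted p under 0.05, where 0% of all tested genes passed with edgeR and DESeq2, which called 0.896% of its 15283 genes, called none of the 9 either. At an unadjusted p under 0.05 there was 1 of the 9, Cd79b, where the share of all tested genes was 6.54%. The groups did not overlap for that gene alone of the 9, where 15.3% of all tested genes had groups apart, 7.73% with anti-NK1.1 higher and 7.59% with anti-NK1.1 lower. Without anti-NK1.1 library 3, 7 of the 9 log2 changes were above 0. With offsets that remove each library's trend with transcript length and GC content (the length and GC correction), 5 of the 9 were above 0 and their median was 0.28, beside -0.05 for all tested genes.

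**Figure D1:**
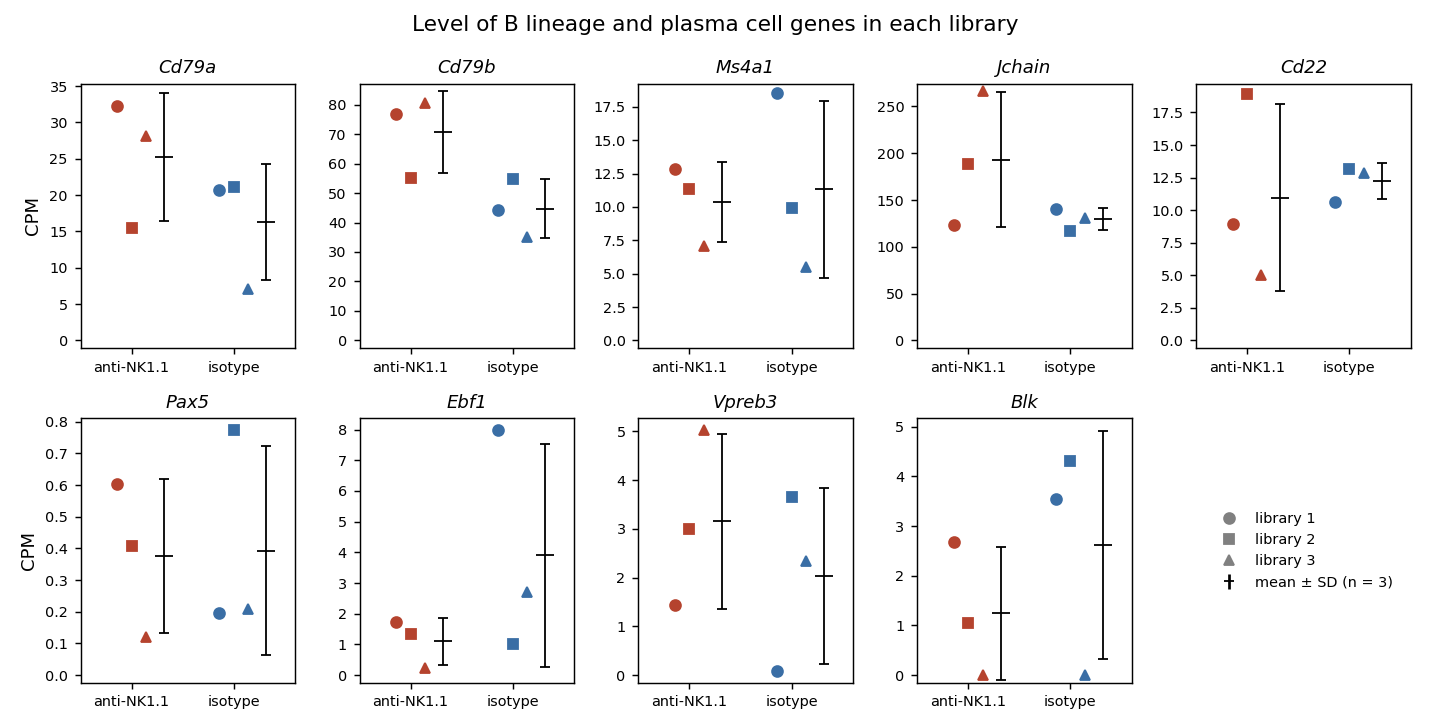
CPM of each of the 9 genes in every library (y axes linear, from 0), with anti-NK1.1 libraries in red and isotype libraries in blue; marker shapes give the library number and bars the mean ± SD of 3 libraries. Cd79b is the only panel in which all 3 anti-NK1.1 points lie above all 3 isotype points, and by a narrow margin, and Blk has a point at 0 in each group.

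Cd79a and Cd79b encode the paired signalling chains of the B cell receptor, each with an immunoreceptor tyrosine-based activation motif in its tail. Cd79b (ENSMUSG00000040592.11, GRCm38 chromosome 11, 106311341 to 106314762, minus strand) had 76.7, 55.0 and 80.7 CPM in anti-NK1.1 libraries 1 to 3, against 44.4, 54.8 and 34.9 CPM in isotype libraries 1 to 3. Every anti-NK1.1 library was higher than every isotype library, but anti-NK1.1 2 at 54.96 CPM and isotype 2 at 54.75 CPM were close to equal. The means were 70.8 ± 13.8 CPM in the anti-NK1.1 group and 44.7 ± 9.92 CPM in the isotype group (SD, n = 3 each), a log2 change of 0.66 ± 0.28 (SE), with an edgeR adjusted p of 0.743. Cd79a (ENSMUSG00000003379.7, chromosome 7, 24897381 to 24902197, plus strand) had 32.2, 15.4 and 28.1 CPM in anti-NK1.1 libraries, against 20.7, 21.1 and 7.05 CPM in isotype libraries. The groups overlapped, since anti-NK1.1 2 lay below isotype 1 and 2, and isotype 3 was the lowest of the 6 for both chains. The log2 change of Cd79a was 0.63 ± 0.49 (edgeR adjusted p = 0.781), and without isotype 3 it was 0.27. Without anti-NK1.1 1 and 3, Cd79a had -0.07 and Cd79b 0.31, with the remaining anti-NK1.1 library assumed to vary like the isotype libraries.

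Both chains have short transcripts, with longest annotated forms of 1457 nt for Cd79a and 1431 nt for Cd79b, and libraries differed in how far they favoured such transcripts. Across tested genes, the rank correlation of a gene's deviation from its own mean with transcript length was -0.15, 0.24 and -0.30 in anti-NK1.1 libraries 1 to 3, against 0.00, 0.02 and 0.32 in isotype libraries 1 to 3. Anti-NK1.1 1 and 3, where long transcripts were scarcest, held the highest levels of Cd79a and Cd79b, and isotype 3, where they were most abundant, held the lowest. The order did not hold throughout, since anti-NK1.1 2, with the second-highest correlation, had more Cd79b than isotype 1 and 2. The part of transcript length in these values was not tested beyond the correction. After the length and GC correction, the log2 change of Cd79a was 0.28 ± 0.41 and that of Cd79b 0.35 ± 0.22 (edgeR adjusted p = 0.886 and 0.701). The 5 genes outside all lists whose log2 CPM followed Cd79a most closely over the 6 libraries were Clpp (Pearson's r = 0.997), Mrpl57 (0.996), Swi5 (0.996), Ndufc2 (0.996) and Tescl (0.995), picked from 12550 genes and therefore without a test. Clpp, a mitochondrial protease subunit, Ndufc2, a subunit of respiratory complex I, and Tescl have longest transcripts of 983, 683 and 855 nt, while Mrpl57 and Swi5 have 2877 and 4511 nt, beside a median of 3405 nt for the genes compared. None of these is a B lineage gene by its known role.

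Ms4a1 and Cd22 encode surface proteins of mature B cells. Ms4a1 (ENSMUSG00000024673.9, chromosome 19, 11249675 to 11266241, minus strand), which encodes CD20, had 12.8, 11.3 and 7.05 CPM in anti-NK1.1 libraries, against 18.6, 9.92 and 5.51 CPM in isotype libraries. The highest and the lowest value both belonged to isotype libraries, and the 3 anti-NK1.1 values lay between them. Its log2 change was -0.12 ± 0.54 (edgeR adjusted p = 0.964), and it was 0.32 after the length and GC correction. Cd22 (ENSMUSG00000030577.14, chromosome 7, 30865402 to 30880342, minus strand), an inhibitory lectin of B cells that binds sialic acid and is also found on aged mouse microglia, had 8.92, 19.0 and 5.02 CPM in anti-NK1.1 libraries, against 10.7, 13.2 and 12.8 CPM in isotype libraries. Here the spread lay within the anti-NK1.1 group, with 1 library above all isotype values and the other 2 below them. The means were 10.96 ± 7.19 CPM in the anti-NK1.1 group and 12.2 ± 1.37 CPM in the isotype group (SD, n = 3 each), and the log2 change was -0.16 ± 0.54 (edgeR adjusted p = 0.953). Without anti-NK1.1 3 it was 0.19, and without anti-NK1.1 1 and 3 it was 0.64. The kit did not mark strand, and 9.50% of the exonic bases of Cd22 overlap a gene on the opposite strand, so reads of the pair cannot be told apart there.

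Blk (ENSMUSG00000014453.4, chromosome 14, 63372836 to 63417037, minus strand) encodes a Src-family kinase that acts below the B cell receptor. It had 71, 36 and 0 counts in anti-NK1.1 libraries, against 127, 139 and 0 counts in isotype libraries, or 2.67, 1.05 and 0 CPM against 3.54, 4.31 and 0 CPM. Library 3 of each group was at 0, where a count of 0 allows up to 0.120 CPM for anti-NK1.1 3 and 0.0784 CPM for isotype 3. The log2 change was -1.07 ± 1.87 (edgeR adjusted p = 0.896), and leaving out 1 library at a time gave -2.30 to -0.49.

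Among the lineage factors, Pax5 was near the limit of detection, and Ebf1 came near it in anti-NK1.1 3. Pax5 (ENSMUSG00000014030.15, chromosome 4, 44524757 to 44710487, minus strand) had 16, 14 and 3 counts in anti-NK1.1 libraries, against 7, 25 and 8 counts in isotype libraries. At this depth the groups could not be told apart, with a log2 change of -0.06 ± 1.37 (edgeR adjusted p = 0.994), and without isotype 2 the change was 0.89. Opposite-strand genes share 7.18% and 1.41% of its exonic bases. Ebf1 (ENSMUSG00000057098.14, chromosome 11, 44617317 to 45008091, plus strand) had 46, 46 and 6 counts in anti-NK1.1 libraries, against 286, 33 and 104 counts in isotype libraries. The mean was 1.104 ± 0.774 CPM in the anti-NK1.1 group, against 3.91 ± 3.63 CPM in the isotype group (n = 3 each, SD), and isotype 1 at 7.98 CPM stood above the other 5 libraries. The log2 change was -1.82 ± 1.13 (edgeR adjusted p = 0.748) with all libraries and -0.75 without isotype 1. In mouse brain Ebf1 is also a gene of pericytes and fibroblasts. The 11 listed markers of those cells summed to 109, 118 and 94.1 CPM in anti-NK1.1 libraries, against 53.1, 49.4 and 88.3 CPM in isotype libraries, and 5 of the 11 were higher in the anti-NK1.1 group. Vtn, which encodes vitronectin, made up most of the anti-NK1.1 sums with 81.5, 69.7 and 59.5 CPM, against 14.3, 22.2 and 27.8 CPM in isotype libraries. Without it the other 10 markers summed to 27.2, 48.6 and 34.5 CPM against 38.7, 27.2 and 60.5 CPM, and the groups overlapped. Their part in the Ebf1 values was not tested.

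Vpreb3 (ENSMUSG00000000903.3, chromosome 10, 75943057 to 75949657, plus strand) encodes a protein that associates with immunoglobulin chains during assembly of the receptor in B cell precursors. It had 38, 103 and 126 counts in anti-NK1.1 libraries, against 3, 118 and 90 counts in isotype libraries. Isotype 1 stood apart with 3 counts, and otherwise the groups interleaved. The log2 change was 0.63 ± 1.20 (edgeR adjusted p = 0.905), and it was 0.09 without isotype 1, 1.37 without isotype 2 and 1.45 with the replicate block. Isotype 1 thus held the highest Ebf1 and the lowest Vpreb3 level of the 6 libraries.

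Jchain (ENSMUSG00000067149.6, chromosome 5, 88519809 to 88527891, minus strand), whose product joins immunoglobulin M and A units into polymers, was the most abundant of the 9. It had 123, 189 and 267 CPM in anti-NK1.1 libraries, against 141, 117 and 131 CPM in isotype libraries. Anti-NK1.1 2 and 3 lay above every isotype library and anti-NK1.1 1 lay within the isotype range. The means were 193 ± 72.1 CPM in the anti-NK1.1 group and 129.7 ± 11.7 CPM in the isotype group (SD, n = 3 each), so the spread between anti-NK1.1 libraries was about as large as the difference. The log2 change was 0.57 ± 0.29 (edgeR adjusted p = 0.743). It was 0.26 without anti-NK1.1 3 and 1.00 ± 0.28 after the length and GC correction, where the edgeR adjusted p was 0.566. Anti-NK1.1 3 also had the highest summed level of the 14 listed neutrophil markers. The sums were 30970, 31860 and 136900 CPM in anti-NK1.1 libraries, against 99040, 77940 and 71510 CPM in isotype libraries. S100a8, S100a9 and Ngp made up most of the sum in anti-NK1.1 3. Ltf, Mmp8, Mmp9, Cxcr2, Elane, Mpo, Prtn3 and Ctsg were instead highest in an isotype library. All 14 had log2 changes below 0, and their part in the Jchain values was not tested. Other lists were also highest in anti-NK1.1 3, among them the T cell markers (43.3 CPM) and the 8 listed monocyte markers. The monocyte markers summed to 1368, 1813 and 5542 CPM in anti-NK1.1 libraries, against 4789, 4215 and 4346 CPM in isotype libraries.

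**Figure D2:**
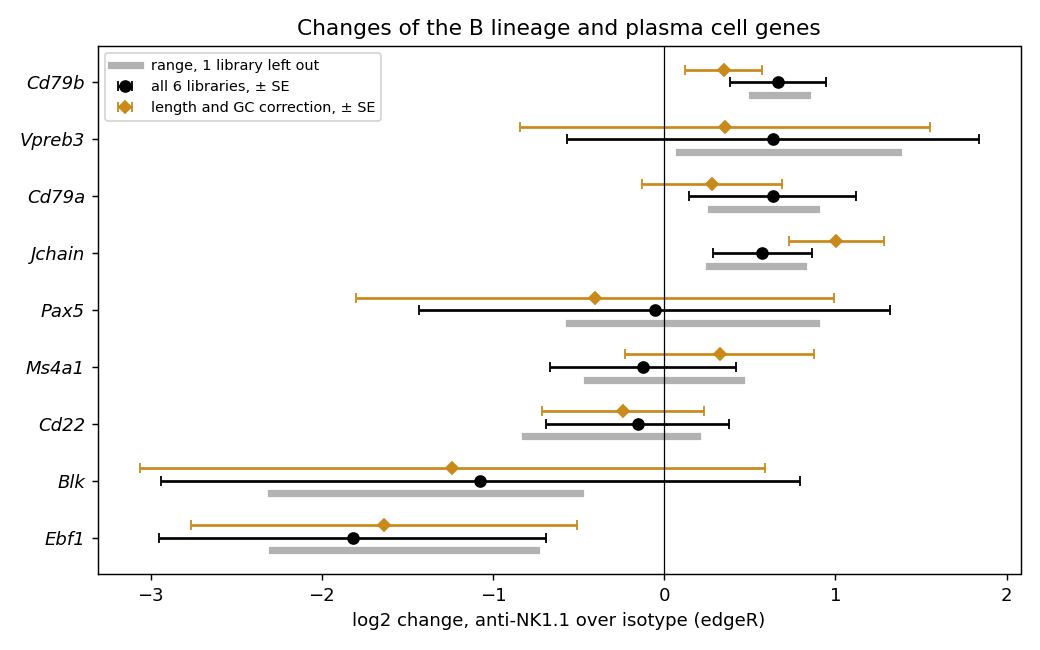
Log2 changes of the 9 genes, anti-NK1.1 over isotype, from edgeR with all 6 libraries (black, ± SE), after length and GC correction (orange, ± SE), and the range when 1 library is left out (grey). Cd79a and Cd79b lie closer to 0 after the correction, Jchain moves from 0.57 to 1.00, and the grey range crosses 0 for Pax5, Ms4a1 and Cd22.

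Per kilobase of annotated exon, the 9 genes spanned a wide range of levels in every library. Jchain had 48.9 to 106 CPM per kb in anti-NK1.1 libraries and 46.6 to 55.9 CPM per kb in isotype libraries, followed by Cd79b with 38.4 to 56.4 and 24.4 to 38.3 CPM per kb and Cd79a with 10.6 to 22.1 and 4.84 to 14.5 CPM per kb. The other members lay lower, with Vpreb3 at 1.66 to 5.85 and 0.0974 to 4.26 CPM per kb, and Pax5, the lowest, at 0.0135 to 0.0680 and 0.0221 to 0.0876 CPM per kb. Over all 6 libraries, only Cd79b and Cd79a among neighbours in this order had ranges that did not overlap. Jchain alone made up 47.3%, 63.9% and 67.9% of the summed CPM of the 9 genes in anti-NK1.1 libraries, against 57.0%, 51.9% and 66.6% in isotype libraries. The ratio of Jchain to Cd79a was 3.82, 12.2 and 9.50 in anti-NK1.1 libraries, against 6.80, 5.56 and 18.6 in isotype libraries, so these genes did not keep a fixed proportion.

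In all, the 9 genes summed to 260.1, 295 and 393 CPM in anti-NK1.1 libraries, against 247, 226 and 197 CPM in isotype libraries. Each anti-NK1.1 sum was higher than each isotype sum. Without Jchain the sums were 137, 107 and 126 CPM against 106, 109 and 65.6 CPM, and the groups overlapped. Transcripts of the 12 microglia markers, such as Tmem119 and P2ry12, summed to 33690 to 41450 CPM over the 6 libraries. In bulk RNA, fewer or more cells of a type cannot be told apart from less or more RNA per cell.

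**Figure D3:**
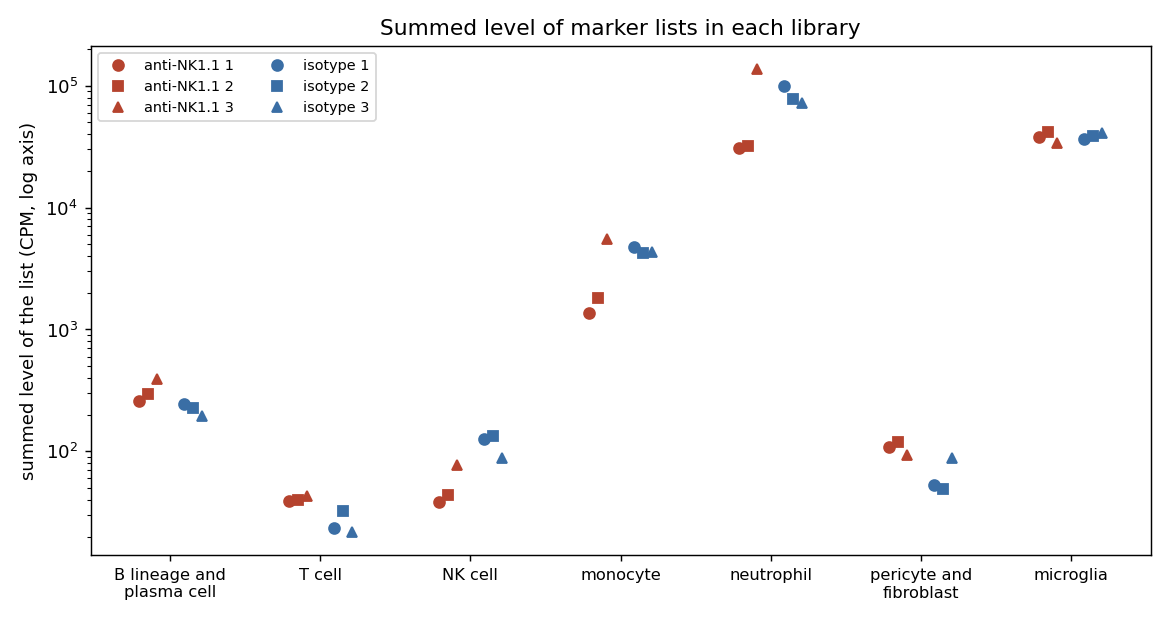
Summed CPM (log axis) of the 9 B lineage and plasma cell genes and of 6 marker lists in each library, anti-NK1.1 in red and isotype in blue, with marker shapes for the library number. The B lineage sum lies between 197 and 393 CPM, far below the microglia sum, and the neutrophil sum is highest in anti-NK1.1 3.

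Of the listed receptor chains and coreceptors, 3 of 9 were tested and 6 immunoglobulin constant-region genes were not analysed here. Cd81, a tetraspanin that many cell types express, averaged 3843 ± 746 CPM in anti-NK1.1 libraries, against 2655 ± 254 CPM in isotype libraries (SD, n = 3 each), with a log2 change of 0.53 ± 0.21 that was 0.29 after the length and GC correction.

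Genes of early precursors were sparse. Of the 6 genes of the surrogate light chain and of immunoglobulin recombination, 2 passed the filter. The recombinase genes Rag1 and Rag2 had 0 counts in every library, apart from 2 counts of Rag2 in isotype 3, and Dntt, which adds bases at the joins, was detected in 1 library of each group. Vpreb1, a surrogate light chain component, had 138, 116 and 123 counts in anti-NK1.1 libraries, against 0, 102 and 61 counts in isotype libraries, and its log2 change was 1.502 ± 1.37 (edgeR adjusted p = 0.805). That change was 0.94 without isotype 1, 2.49 without isotype 2, 2.41 with the replicate block and 2.90 with limma-voom. Isotype 1 thus had the lowest level of both Vpreb1 and Vpreb3. Igll1, its partner, had 39, 3 and 121 counts against 52, 97 and 0 counts, with the groups interleaved (log2 change 0.51 ± 1.72).

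Genes that act below the receptor lay mostly lower in the anti-NK1.1 group. Of 13 tested, 11 had log2 changes below 0 with a median of -0.50 (median of all tested genes 0.01), and none passed with edgeR. After the length and GC correction 10 of the 13 were below 0 and the median was -0.46. Without anti-NK1.1 1 and 3, 8 of the 13 were below 0 and the median was -0.09. Microglia and other myeloid cells express several of them, among them Syk, Lyn, Btk and Plcg2. Plcg2, a phospholipase that is also a risk gene for Alzheimer's disease in humans, averaged 81.6 ± 21.2 CPM in anti-NK1.1 libraries, against 131 ± 27.6 CPM in isotype libraries (SD, n = 3 each), and its log2 change was -0.69 ± 0.27 (edgeR adjusted p = 0.727). Cd72, an inhibitory coreceptor of B cells, went the other way with 49.4, 41.0 and 48.8 CPM in anti-NK1.1 libraries, against 24.3, 26.2 and 20.98 CPM in isotype libraries. The groups were well apart, and the log2 change was 0.96 ± 0.28 (edgeR adjusted p = 0.727, DESeq2 adjusted p = 0.0352) and 0.81 after the length and GC correction. It was the only gene of the B lineage lists that DESeq2 called, beside 0.896% of the 15283 genes that DESeq2 tested. Which cells held the Cd72 transcripts was not tested.

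B lineage transcription factors had 4 of 10 tested genes above 0 and a median log2 change of -0.12. The median was -0.16 after the length and GC correction and 0.08 without anti-NK1.1 1 and 3. Irf4, which is needed for plasma cell formation, had 0.828, 3.97 and 2.79 CPM in anti-NK1.1 libraries, against 6.835, 8.15 and 6.11 CPM in isotype libraries. All 3 anti-NK1.1 values were lower, with a log2 change of -1.47 ± 0.74 (edgeR adjusted p = 0.743). Ets1 had a log2 change of -0.64 ± 0.35, and of -1.03 without anti-NK1.1 2.

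Surface genes of mature B cells had 2 of 8 tested genes above 0 and 6 below, and none passed with edgeR. Their median log2 change was -0.50, or -0.56 after the length and GC correction and -0.25 without anti-NK1.1 1 and 3. Ly6d, a surface marker of early B lineage commitment, had 19.9, 13.1 and 25.3 CPM in anti-NK1.1 libraries, against 4.58, 9.18 and 2.43 CPM in isotype libraries. The groups did not overlap, and the log2 change was 1.85 ± 0.57 (edgeR adjusted p = 0.727) and 1.61 after the length and GC correction. Fcmr, the receptor for the Fc part of immunoglobulin M, had 1.99, 2.45 and 2.51 CPM against 10.4, 4.22 and 4.55 CPM, lower in each anti-NK1.1 library, with a log2 change of -1.46 ± 0.70 (edgeR adjusted p = 0.743) that was -0.90 without isotype 1. Fcer2a, the low-affinity receptor for immunoglobulin E, was at 0 in 5 libraries.

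Of the plasma cell genes, 9 of 14 were tested, and the rest, immunoglobulin constant-region genes, were not analysed here. Log2 changes were above 0 for 6 of the 9, and the median was 0.31. After the length and GC correction 4 of the 9 were above 0 and the median was -0.06. Mzb1, a chaperone of the endoplasmic reticulum in antibody-secreting and marginal zone B cells, had 11.6, 15.2 and 18.1 CPM in anti-NK1.1 libraries, against 5.64, 10.3 and 3.03 CPM in isotype libraries. Every anti-NK1.1 library was higher than every isotype library, and the log2 change was 1.24 ± 0.54 (edgeR adjusted p = 0.743). Prdm1, which encodes the plasma cell regulator BLIMP-1, had 8.05, 7.155 and 2.59 CPM against 7.90, 8.19 and 26.6 CPM, a log2 change of -1.26 ± 0.66 that was -0.44 without isotype 3.

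Ligands that keep B cells alive or attract them included 5 tested genes of 8, all with log2 changes above 0 and a median of 0.27. Among all tested genes 50.9% were above 0. Il6 (0.002 ± 0.53), Tnfsf13 (0.12 ± 1.12) and Tnfsf13b (0.27 ± 0.27) had changes no larger than their SE. After the length and GC correction 4 of the 5 were above 0. Cxcl13, the chemokine that draws B cells into follicles, had 176, 134 and 171 CPM in anti-NK1.1 libraries, against 126, 91.6 and 34.1 CPM in isotype libraries. The groups did not overlap, and the log2 change was 0.93 ± 0.41 (edgeR adjusted p = 0.743), falling to 0.56 without isotype 3 and reaching 1.24 after the length and GC correction. Cxcl12, which retains B cell precursors in the marrow, had 4.06, 9.05 and 2.19 CPM against 1.59, 0.310 and 1.65 CPM, and its log2 change was 2.11 ± 0.98 (edgeR adjusted p = 0.743), or 1.40 without anti-NK1.1 2.

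**Figure D4:**
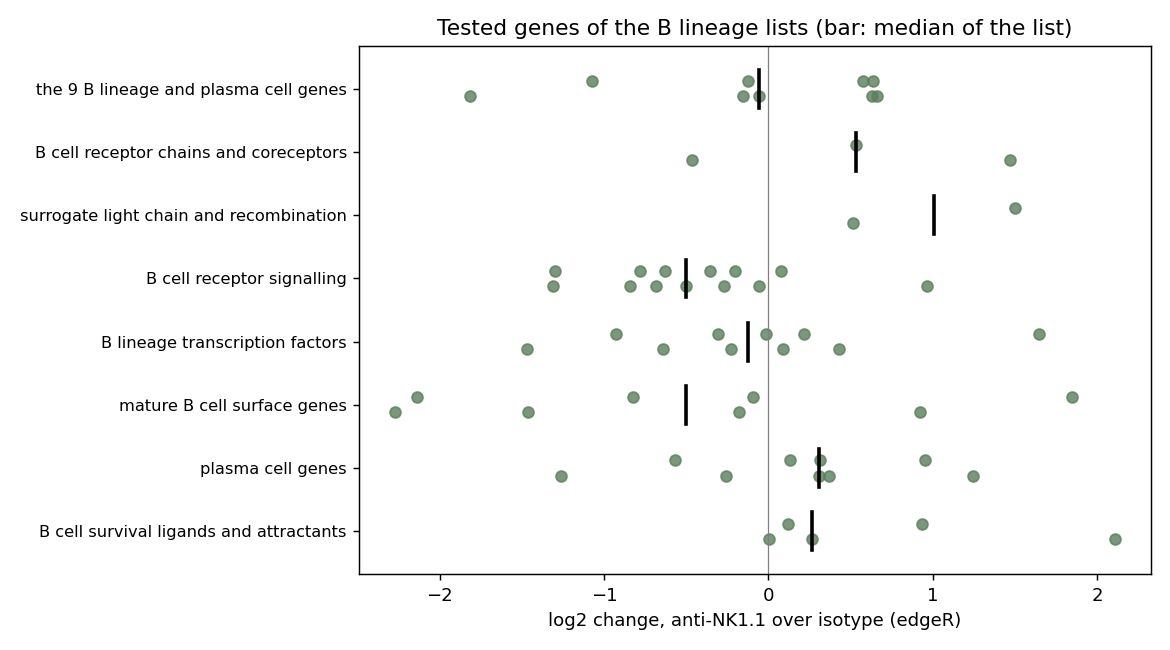
Log2 change, anti-NK1.1 over isotype, of every tested gene in the 9-gene set and in 7 further B lineage lists (points), with the median of each list (bar). Signalling genes and mature B cell surface genes lie mostly below 0, each list with a median of -0.50. Plasma cell genes and survival ligands have medians of 0.31 and 0.27, of which the plasma cell median is -0.06 after length and GC correction.

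Markers of other lymphocytes were measured in the same libraries. The 11 T cell markers in the table summed to 38.8, 39.9 and 43.3 CPM in anti-NK1.1 libraries, against 23.4, 32.2 and 21.7 CPM in isotype libraries, with 7 of 10 tested genes above 0. For 4 of these 10 (Cd3e, Cd3g, Cd3d and Cd8b1) all 3 anti-NK1.1 values exceeded the 3 isotype values, beside 7.73% of all tested genes. The 3 with log2 changes below 0 were Lck (-1.38), Icos (-1.10) and Cd247 (-0.29). Cd5 was at 0 in all but isotype 2 and 3. The 10 NK cell markers summed to 38.3, 44.1 and 76.8 CPM against 125, 133 and 88.7 CPM, and Nkg7 and Klrd1 made up most of every sum. Of 8 tested genes 7 had log2 changes below 0, and Eomes was above 0 (0.32 ± 1.92). For 3 of the 8 (Klrb1c, Gzma and Klrd1) all 3 anti-NK1.1 values lay below the 3 isotype values, beside 7.59% of all tested genes. Klrb1c, which encodes the antibody's target NK1.1, had 0, 0 and 13 counts in anti-NK1.1 libraries, against 50, 45 and 80 counts in isotype libraries. For plasmacytoid dendritic cells, which also express Blk, the 4 markers in the table summed to 27.9, 13.1 and 18.1 CPM in anti-NK1.1 libraries, against 12.2, 12.3 and 12.3 CPM in isotype libraries. Cox6a2 and Pacsin1 were detected in all 6 libraries, Ccr9 had 22, 0 and 30 counts in anti-NK1.1 libraries and 0 in each isotype library, and Klk1 was at 0 throughout. Their part in the Blk values was not tested. Of the 5 erythroid markers, the globin genes Hba-a1, Hba-a2, Hbb-bt and Hbb-bs were at 0 in all 6 libraries. The counter and its gene models were not given, so these counts of 0 do not show that globin RNA was absent. Alas2, an enzyme of heme synthesis, had 132, 280 and 13 counts in anti-NK1.1 libraries, against 15, 28 and 67 counts in isotype libraries.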

How the data were processed

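RNA was sequenced as 75 bp single-end reads from SMART-seq v4 and Nextera XT libraries, per the labels' protocols. Per the submitters' processing notes, the tools included STAR 2.5.3a, Cufflinks 2.0 and DESeq2 1.1 with build mm10; the counter, its strand option and its gene models were not given in the sources used here. Whole-number read counts per gene are what the authors deposited, although the table is called normalized. Left out were 26 rows with a date in place of a symbol, and the rows of reads in no feature (53.3% to 57.4% of reads) and ambiguous reads. Gene counts totalled 26.9 M to 36.1 M per library, and a floor of 3 counts was 0.0784 to 0.120 CPM, covering counting error only.

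Genes passing filterByExpr (14520) were compared with edgeR 4.0.16 (glmQLFit and glmQLFTest, two-sided, R 4.3.3), TMM factors, group as the only term, and Benjamini-Hochberg adjustment over all tested genes at 0.05. The SE is the absolute log2 change divided by the square root of F. Alternatives were DESeq2 1.42.0, limma 3.58.1 with voom and quantile normalization, median-ratio factors, no filter, a replicate block, leaving out libraries, and per-library smooths on longest transcript length and GC content (GENCODE M21, 99.1% of tested genes) as offsets. Members and lists were chosen with earlier results of these data known. All 9 members are named, with the 2 genes of smallest p in each B lineage list, the 5 genes most correlated with Cd79a in log2 CPM (prior count 2, mean CPM of at least 1) and defining markers, apart from some that are not reported here; others were chosen after their values were seen. P-values measure the spread between these libraries, which may be technical.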

Additional observations from a re-analysis of the deposited data

How the results depend on the processing

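No member passed an adjusted p under 0.05 under any alternative run. Over all genes edgeR called 0 (950 at an unadjusted p under 0.05), DESeq2 137, limma-voom with quantile normalization 2, and edgeR with 1 library left out 0 to 129, the 129 without anti-NK1.1 2. Members with a log2 change above 0 numbered 4 of 9, and 4 to 7 with 1 library left out, the 7 without anti-NK1.1 3. With 1 library left out, Cd22 ranged from -0.81 to 0.19, Ms4a1 from -0.45 to 0.45, Pax5 from -0.56 to 0.89 and Igll1 from -0.94 to 1.54. Without anti-NK1.1 1 and 3, Cd22 had 0.64, Cd79a -0.068, Ms4a1 0.01, Pax5 0.066 and Igll1 -4.02. Ms4a1 also turned with limma-voom (0.15), the replicate block (0.005) and the length and GC correction (0.32). The cause was not tested. The replicate block called 0 genes; same-numbered libraries had deviations correlated at 0.053, 0.03 and -0.004, so the numbers were not taken as pairs. Pax5, Blk, Vpreb3 and Ebf1 had SEs above 1 on the log2 scale, so changes of that size were not detectable. The limit was not confined to these genes, since Cd72 with 0.96 ± 0.28 had an edgeR adjusted p of 0.727.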
